A study of Mus musculus with 12 samples.

Results

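The 8 genes described here encode the proteins that make microRNAs and small interfering RNAs and those that use them: Dicer1, Drosha, Dgcr8, Tarbp2 and the 4 Argonaute genes, which the array lists under their older symbols Eif2c1 to Eif2c4 (now Ago1 to Ago4). They were chosen by name, through the gene name of each non-control probe or the accession it was designed to, by a rule that contains no measured value. They make up 8 of 21300 gene symbols and 25 of 41174 probes on the array. Signals came from 12 single blastomeres, both cells of each of 6 CF-1 mouse embryos that were split at the 2-cell stage, 36 h post coitus. The embryos came from natural matings and were flushed from the oviduct, and the labels name no treatment and no allele. Pairs D, I and L belonged to experiment 1 and pairs D, G and H to experiment 2, with 1 Agilent whole mouse genome array per cell. A letter shared by the experiments stands for different embryos. The labels do not say what sets cell 1 apart from cell 2, so this comparison asks only whether the number carries a shared difference.

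In the canonical microRNA pathway, Drosha and its partner Dgcr8 (the Microprocessor) cut hairpins out of nuclear transcripts, Dicer1 with Tarbp2 trims the exported hairpins to short duplexes, and an Argonaute protein keeps a strand of the duplex and uses it to find target messages. Dicer1 also makes small interfering RNAs from long double-stranded RNA, without Drosha or Dgcr8, and Ago2 is the Argonaute that cuts its targets. Mouse oocytes are known for abundant endogenous small interfering RNAs and for weak microRNA activity, and at the 2-cell stage maternal messages are being cleared while the embryo's own genome starts to be read.

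Array quality set what could be measured. The share of spots well above background, as the scanner software called it, ran from 22.1 to 41.7% in experiment 1 and from 31.2 to 78.8% in experiment 2. The labels name Cy3 for every sample, but the files of experiment 1 hold the signal in Cy5, so it was read in Cy5 there and in Cy3 in experiment 2. Dye differed between the experiments and slides were not shared, so experiment, dye and slide cannot be told apart. Oocyte markers were well above background for 10 to 14 of 14 genes in every cell. Markers of oviduct epithelium, stroma and macrophages were also detected. Signals are given as log2 of the processed signal divided by the array's 75th percentile over the 5857 probes detected on all arrays. Values under -4.12, the highest of the arrays' own lower limits, were raised to that floor, so a value at the floor is an upper bound. Levels of different probes cannot be set against each other, since probes differ in how they bind. A lower signal from a single cell cannot be told apart from less RNA recovered from it.

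Promoter windows were available for 7 of the 8 genes in RefSeq (build GRCm38.p6), with Eif2c2 as the exception. Eif2c3, Eif2c1 and Eif2c4 are immediate neighbours on chromosome 4, with no other gene listed between them. The 250 bases before the start site are shown for Dicer1, Dgcr8, Eif2c4 and Drosha. The first 3 were picked because their signals, by 1 probe per gene, lay above the floor in nearly the same cells. Drosha was picked because the signal of its probe did not follow theirs. All are written 5′ to 3′ on the strand of the gene, and capitals mark the GC box GGGCGG or its reverse complement CCGCCC, overlapping matches included.
Dicer1 (chr12:104751953-104752202, minus strand): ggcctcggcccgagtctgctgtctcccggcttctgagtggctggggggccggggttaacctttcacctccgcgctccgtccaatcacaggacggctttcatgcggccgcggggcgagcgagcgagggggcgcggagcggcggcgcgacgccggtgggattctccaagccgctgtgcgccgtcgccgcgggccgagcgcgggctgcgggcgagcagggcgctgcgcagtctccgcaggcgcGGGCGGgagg
Dgcr8 (chr16:18289169-18289418, minus strand): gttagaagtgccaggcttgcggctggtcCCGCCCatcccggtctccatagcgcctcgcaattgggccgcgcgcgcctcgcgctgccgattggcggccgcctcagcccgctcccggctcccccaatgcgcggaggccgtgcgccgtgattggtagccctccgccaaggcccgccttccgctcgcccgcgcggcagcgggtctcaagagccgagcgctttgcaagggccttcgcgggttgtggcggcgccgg
Eif2c4 (chr4:126533459-126533708, minus strand): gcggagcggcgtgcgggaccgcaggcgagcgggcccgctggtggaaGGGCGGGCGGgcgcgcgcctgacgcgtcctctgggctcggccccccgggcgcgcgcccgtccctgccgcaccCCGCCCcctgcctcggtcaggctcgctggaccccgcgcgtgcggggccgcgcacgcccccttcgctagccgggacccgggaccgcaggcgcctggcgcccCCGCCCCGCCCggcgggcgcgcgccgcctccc
Drosha (chr15:12824565-12824814, plus strand): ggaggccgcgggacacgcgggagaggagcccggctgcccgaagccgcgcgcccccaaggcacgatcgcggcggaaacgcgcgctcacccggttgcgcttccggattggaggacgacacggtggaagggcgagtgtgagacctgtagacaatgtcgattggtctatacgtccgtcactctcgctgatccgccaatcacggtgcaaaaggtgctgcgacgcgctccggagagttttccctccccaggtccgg
These windows were rich in G and C, from 66.4% in Drosha to 85.6% in Eif2c4, against a median of 52.4% over 32851 mouse windows of the same length. They held 33 to 46 CpG pairs each, where the median window held 6. The GC box occurred 5 times in Eif2c4, in 2 overlapping pairs and a single match, and 1 time each in Dicer1 and Dgcr8, and did not occur in Drosha. It was found in 32.7% of all windows. CCAAT, searched on both strands like every motif here, occurred in Dicer1, Dgcr8 and Drosha but not in Eif2c4, and in 33.8% of all windows. TATAAA was in none of the 8 member windows (Eif2c1 has 2) and in 12.4% of all windows. These are matches of letters and say nothing about what binds there.

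Detection of the 25 probes was uneven, and most genes had probes that disagreed. Only 4 probes were well above background on all 12 arrays, 1 each for Drosha, Tarbp2, Eif2c2 and Eif2c4. At the other end, 3 probes were above background on no array, 1 for Dgcr8 and 2 for Eif2c3. These shares were near those of the whole array: 16.0% of member probes and 14.2% of all probes were detected on all arrays, and 12.0% and 15.6% on none. A probe was tested if it was well above background on at least 6 arrays, which left 12 member probes of 7 genes. The gene left out was Eif2c1, whose 3 probes were detected on 5, 4 and 2 arrays.

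**Figure D1:**
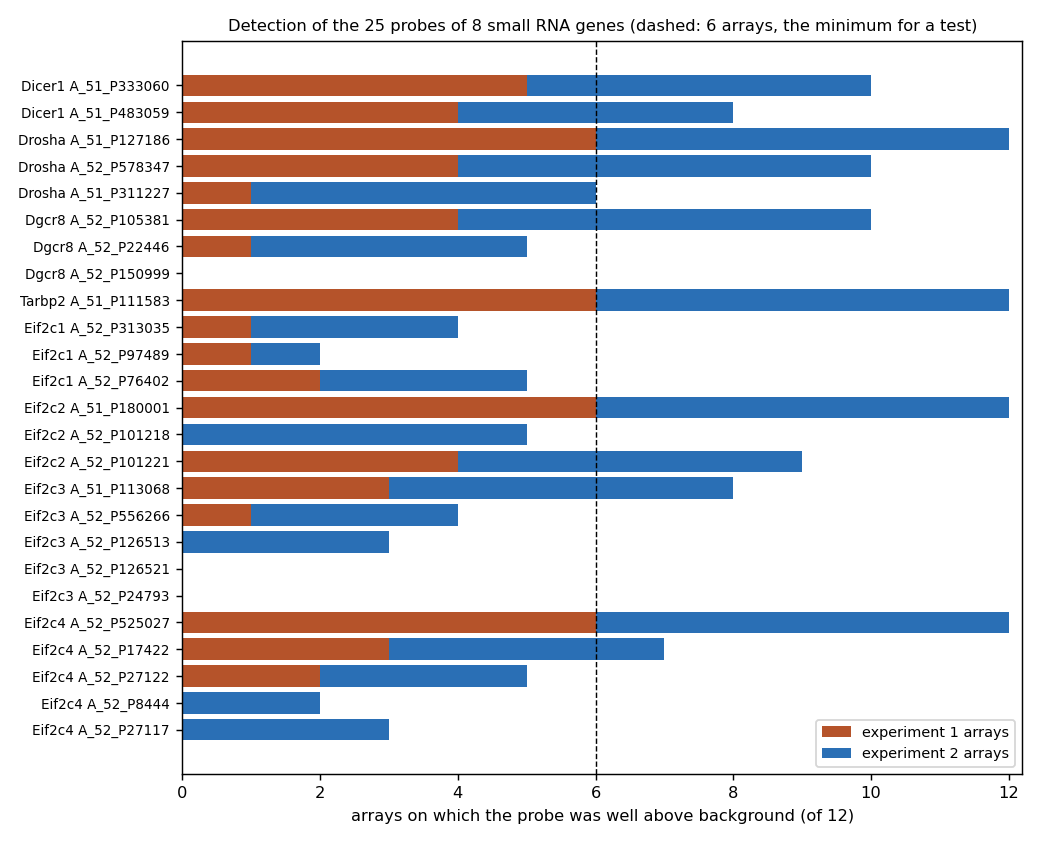
Number of arrays, of 6 in each experiment, on which each of the 25 probes of the 8 genes was well above background, with experiment 1 in brown and experiment 2 in blue. Bars for Drosha, Tarbp2, Eif2c2 and Eif2c4 reach 12 for 1 probe each, while 3 probes have no bar.

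Drosha, the nuclear RNase III that starts microRNA processing, had the smallest mean twin difference of the 7 tested genes. This holds with each gene read by its tested probe of highest mean signal. With probe A_51_P127186 cells 1 and 2 read 2.38 and 2.64 (pair D), 3.31 and 3.69 (I) and 3.47 and 3.34 (L) in experiment 1. The cells of experiment 2 read 2.79 and 3.11 (pair D), 2.86 and 2.58 (G) and 2.72 and 2.84 (H). Both cells of experiment 1 pair D lay under the other 4 cells of that experiment, and the 6 cells of experiment 2 lay between 2.58 and 3.11. Experiment 1 averaged 3.14 ± 0.51 and experiment 2 averaged 2.82 ± 0.18 (SD, n = 6 cells each), and their ranges overlapped. Of its other probes, A_52_P578347 lay above the floor in 7 cells, reaching -1.77, and A_51_P311227 in 3, reaching -2.49. The files do not give where on the transcript each probe lies.

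Dgcr8, the RNA-binding partner of Drosha, was seen by probe A_52_P105381 on 10 arrays. Cells 1 and 2 of experiment 1 read -3.71 and -2.85 (pair D), stood at the floor (I), or read -4.10 and -2.13 (L). Those of experiment 2 read -1.28 and -1.62 (pair D), the floor and -2.37 (G), and the floor in both cells (H). The highest and lowest cells differed by at least 7.20-fold, since the lowest stood at the floor. Of its other probes, A_52_P22446 lay above the floor in 4 cells, all of them cells in which the first probe was also above it, and A_52_P150999 in none.

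Dicer1, the cytoplasmic RNase III that makes microRNA and small interfering RNA duplexes, was above the floor in 5 of 12 cells with probe A_51_P333060. These were cell 2 of experiment 1 pair D (-3.71) and of pair L (-3.20), both cells of experiment 2 pair D (-2.38 and -2.56), and cell 2 of pair G (-2.62). The other 7 cells stood at the floor, although the probe was called well above background on 10 arrays. The second Dicer1 probe, A_51_P483059, reached no more than -3.96 in any cell.

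Tarbp2, the double-stranded RNA binding partner of Dicer1, had 1 probe (A_51_P111583), which was detected on every array. In experiment 1 cells 1 and 2 read -2.28 and -0.57 (pair D), -1.07 and -1.57 (I) and -1.61 and -1.26 (L). In experiment 2 the values were -1.29 and -1.11 (pair D), -1.07 and -0.77 (G) and -1.17 and -1.27 (H). The lowest and the highest cell of the series were the twins of experiment 1 pair D, and the other 10 cells lay between them. The experiments averaged -1.39 ± 0.58 and -1.11 ± 0.19 (SD, n = 6 cells each).

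Eif2c2, which encodes the target-cutting Argonaute Ago2, was the Argonaute gene whose probe stayed above the floor in all 12 cells. Probe A_51_P180001 gave -0.86 and -2.12 (pair D), -2.22 and -1.64 (I) and -2.29 and -1.43 (L) in cells 1 and 2 of experiment 1. In experiment 2 it gave -1.08 and -2.57 (pair D), -1.37 and -0.41 (G) and -2.12 and -1.62 (H). High and low cells occurred side by side within embryos. The range of experiment 2, -2.57 to -0.41, enclosed that of experiment 1, -2.29 to -0.86. The experiments averaged -1.76 ± 0.56 and -1.53 ± 0.76 (SD, n = 6 cells each). Its probe A_52_P101221 was above the floor in 6 cells, and A_52_P101218 in 3, all in experiment 2.

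Eif2c4 (Ago4) had a probe detected on all arrays, A_52_P525027, but 5 cells fell under the common floor. Cells 1 and 2 of experiment 1 read -3.40 and -3.41 (pair D), stood at the floor (I), or read -4.00 and -2.15 (L). Those of experiment 2 read -2.52 and -2.07 (pair D), the floor and -3.13 (G), and the floor in both cells (H). With each array's own lower limit in place of the common floor, those 5 cells read between -6.59 and -5.44. The second tested probe, A_52_P17422, lay above the floor in 5 cells, the same 5 as Dicer1.

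Eif2c3 (Ago3) and Eif2c1 (Ago1) were at or near the floor in most cells. Eif2c3 probe A_51_P113068 was highest in experiment 1 pair D cell 1 (-2.65) and experiment 2 pair H cell 1 (-3.04), and between the floor and -3.48 in the other 10 cells. Its other 4 probes stayed at the floor, apart from 1 cell at -3.87. Eif2c1 probe A_52_P313035 was above the floor in experiment 1 pair L cell 2 (-3.85) and in both cells of experiment 2 pair D (-3.37 and -3.47), and at the floor in the other 9 cells.

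**Figure D2:**
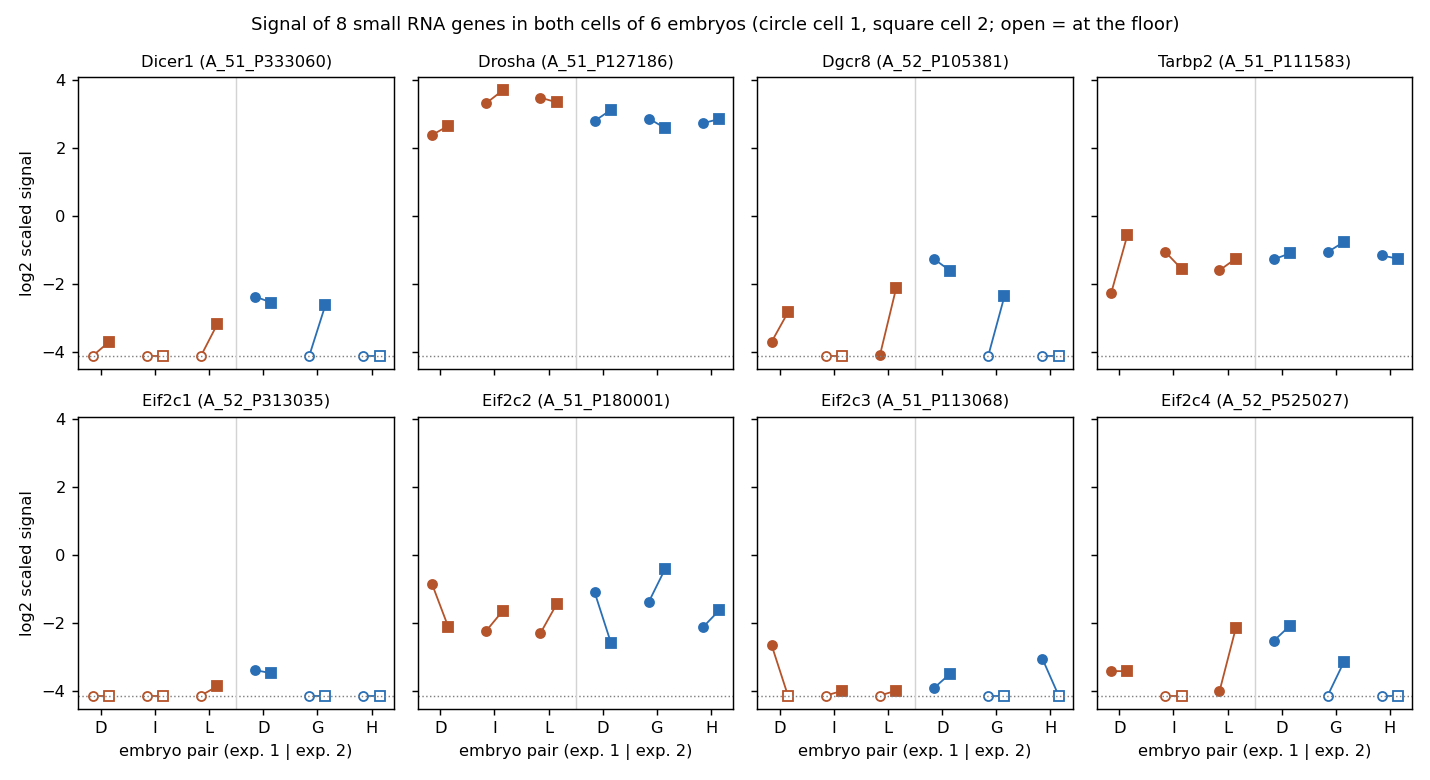
Log2 scaled signal of the representative probe of each gene in cell 1 (circle) and cell 2 (square) of each embryo, joined by a line, with experiment 1 in brown and experiment 2 in blue. Open symbols lie at the floor of -4.12 (dotted). Drosha, Tarbp2 and Eif2c2 have no open symbol, and Dicer1, Dgcr8 and Eif2c4 are filled in largely the same cells.

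The representative probes of Dicer1, Dgcr8, Eif2c4 and Eif2c1 thus shared a pattern. In the 5 cells in which the Dicer1 probe was above the floor, the Dgcr8 and Eif2c4 representatives were above it in 5 of 5, against 2 of 7 in the other cells, and the Eif2c1 representative in 3 of 5 against 0 of 7. The same 5 arrays had the most probes above the floor in general: 70.5 to 89.6% of the 16712 tested probes, against 45.7 to 55.2% on the other 7 arrays. Across the 12 cells, the signal of Dgcr8 followed this share with a Pearson correlation of 0.99, that of Dicer1 with 0.95, that of Eif2c4 with 0.94 and that of Eif2c1 with 0.79. All points share the array from which both measures were read. For Drosha, Tarbp2, Eif2c2 and Eif2c3 the correlation over the same cells was -0.13, 0.30, 0.18 and -0.07. Other probes of the 4 genes were mixed. Dicer1 probe A_51_P483059 was above the floor in 1 of those 5 cells and 1 of the other 7, and Eif2c1 probe A_52_P97489 in 0 and 1. Dgcr8 probe A_52_P22446 was above it in 4 and 0, and Eif2c4 probe A_52_P17422 in 5 and 0. The part that array sensitivity plays in the pattern of the 4 genes was not tested.

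**Figure D3:**
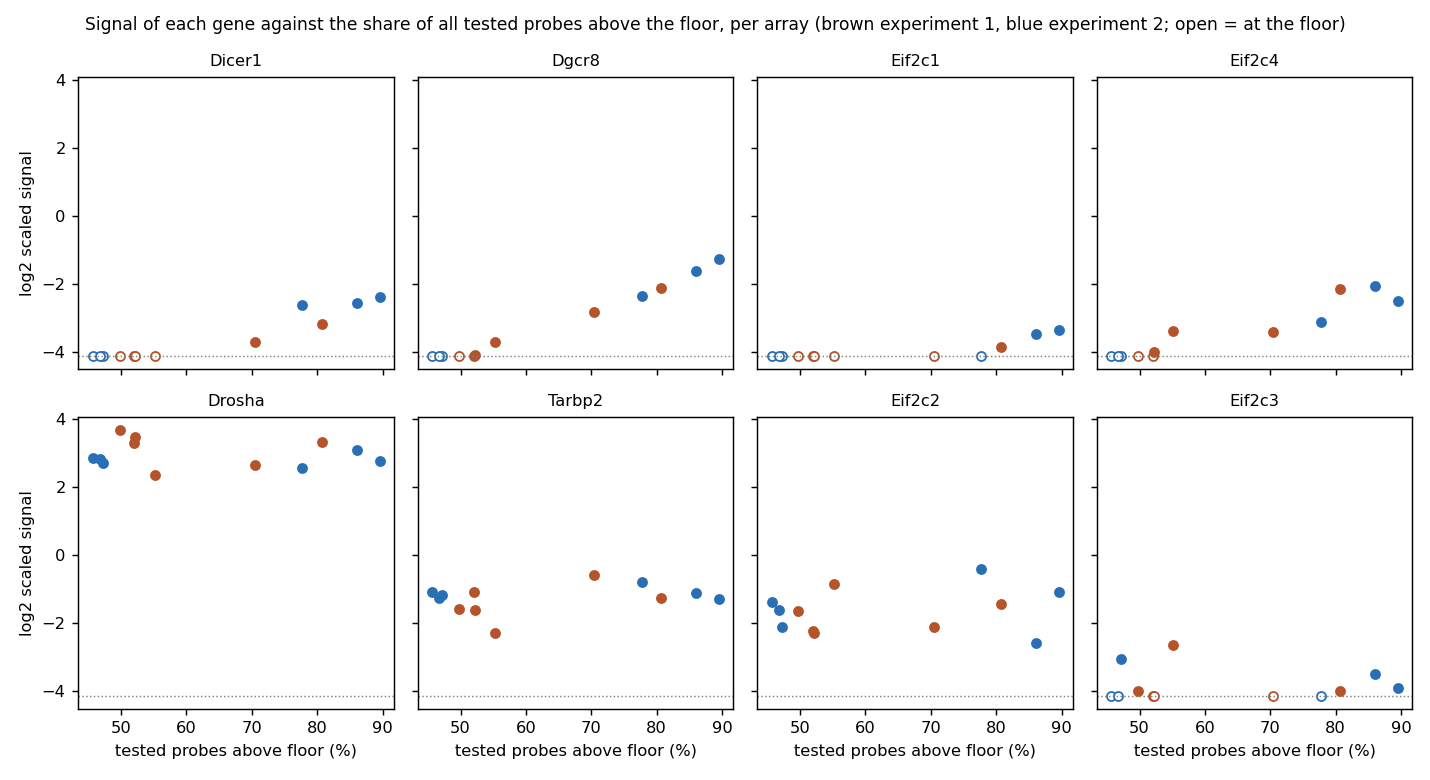
Log2 scaled signal of the representative probe of each gene against the percentage of all tested probes above the floor on the same array, with 1 point per cell (brown experiment 1, blue experiment 2, open at the floor). Dicer1, Dgcr8 and Eif2c4 climb along the axis, while Drosha, Tarbp2 and Eif2c2 show no slope.

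Genes with the most similar profiles over the 12 cells, after removal of each experiment's mean, were sought among 4774 genes detected on all arrays. For Drosha they were Vil1 (Pearson r = 0.93), Slc14a1 (0.92) and 2700062C07Rik (0.89). For Tarbp2 they were Cd151 (0.81), Rnf213 (0.81) and Prkaca (0.80), and for Eif2c2 they were Ddit4l (0.84), Cep170b (0.83) and Slc35e2 (0.82). For Eif2c4 they were Ppil6, Gm4013 and Pccb, each at 0.99. These are the highest of many values over 12 cells that share arrays, and are given as a description.

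The first comparison the design allows is between embryos of the same experiment, with twin cells as replicates. None of the 7 tested genes passed the test between embryos (0 of 7 at an adjusted p under 0.05, limma's moderated F test with Benjamini-Hochberg adjustment over 16712 probes, where 1.41% of all probes passed). Drosha came nearest, with an unadjusted p of 0.0121 and an adjusted p of 0.101 in limma. In experiment 1 its embryo means were 3.50 (pair I), 3.40 (L) and 2.51 (D), a 1.98-fold span between the highest and the lowest. In experiment 2 they were 2.95 (pair D), 2.78 (H) and 2.72 (G), a 1.17-fold span. Pairs I and L, and the neighbours in the order of experiment 2, lay closer than the pooled twin SD of 0.19. Pair D of experiment 1 was alone on its slide, and over the slides that held 2 embryos (I with L, G with H) the adjusted p of Drosha was 0.935. With probes detected on at least 3 arrays, or with no filter on dim probes, Drosha passed in limma at adjusted p of 0.0488 and 0.0467, where 14.1% of all probes passed under either setting. Its adjusted p was 0.508 with a lower common floor, 0.484 with a floor for each array, 0.484 with the deposited table and 0.671 with the mean of its probes.

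Dgcr8, Eif2c4 and Dicer1 had the widest spans between embryo means, in experiment 2, where pair D was highest and pair H, at the floor in both cells, lowest. The spans were at least 6.38-fold for Dgcr8, 3.55-fold for Eif2c4 and 3.15-fold for Dicer1, with limma adjusted p of 0.168, 0.184 and 0.215. In pair G cell 1 stood at the floor for all 3 genes, and cell 2 read -2.37 for Dgcr8, -3.13 for Eif2c4 and -2.62 for Dicer1. With a floor for each array, Dgcr8 (adjusted p = 0.030) and Eif2c4 (0.033) passed in limma, but so did 26.1% of all probes. With normexp background correction Dgcr8 (0.0082), Eif2c4 (0.0083) and Dicer1 (0.030) passed, with 40% of all probes. With quantile normalization the adjusted p of Dgcr8, Eif2c4 and Dicer1 was 0.230, 0.551 and 0.743. Pair D of experiment 2 was also alone on its slide, and over slides with 2 embryos all 3 genes had an adjusted p of 0.675. Leaving out cell 1 of experiment 1 pair L also brought Eif2c4 past the threshold, at an adjusted p of 0.0267, where 23.2% of all probes passed. Each of these background shares was above the 1.41% of the main analysis, and the members' calls are read against it. Eif2c3, Eif2c2 and Tarbp2 had adjusted p of 0.651, 0.667 and 0.991.

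The second comparison is between the twins themselves. Drosha twins differed by 0.25 ± 0.10 on average (absolute log2 difference, mean ± SD, n = 6 pairs), at most 1.30-fold. This lay under the lower quartile of all tested probes (0.29) and of the probes detected on all arrays (0.41). Eif2c2 twins differed by 0.94 ± 0.38, from 0.50 in experiment 2 pair H to 1.48, or 2.79-fold, in pair D, above the upper quartiles of 0.70 and 0.77. No test bears on either gene's place among all probes. Both places belong to 1 probe per gene, and other tested probes read otherwise. Drosha probe A_52_P578347 gave -1.77 and -3.68 in cells 1 and 2 of experiment 2 pair D, and the floor and -2.18 in pair H. Eif2c2 probe A_52_P101221 gave -3.24 and -2.95 in pair G of that experiment. These probes were above the floor in only 7 and 6 of the 12 cells.

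Tarbp2 twins differed by 0.52 ± 0.60, because experiment 1 pair D differed 3.27-fold while the other 5 pairs differed by 0.10 to 0.50. Cell 1, the lower of that pair, was read on the array with the smallest share of spots well above background (22.1%). The part of array quality in this difference was not tested. Dgcr8 (0.82 ± 0.87), Eif2c4 (0.55 ± 0.75), Eif2c3 (0.54 ± 0.60) and Dicer1 (0.50 ± 0.60) combined pairs with both cells at the floor with pairs that differed by over 1 log2 unit. The median over all tested probes was 0.48. In experiment 1 pair L and experiment 2 pair G, Dicer1, Dgcr8 and Eif2c4 were all higher in cell 2, and on both slides the array of cell 2 also had more probes above the floor (80.7 against 52.2%, and 77.7 against 45.7%).

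**Figure D4:**
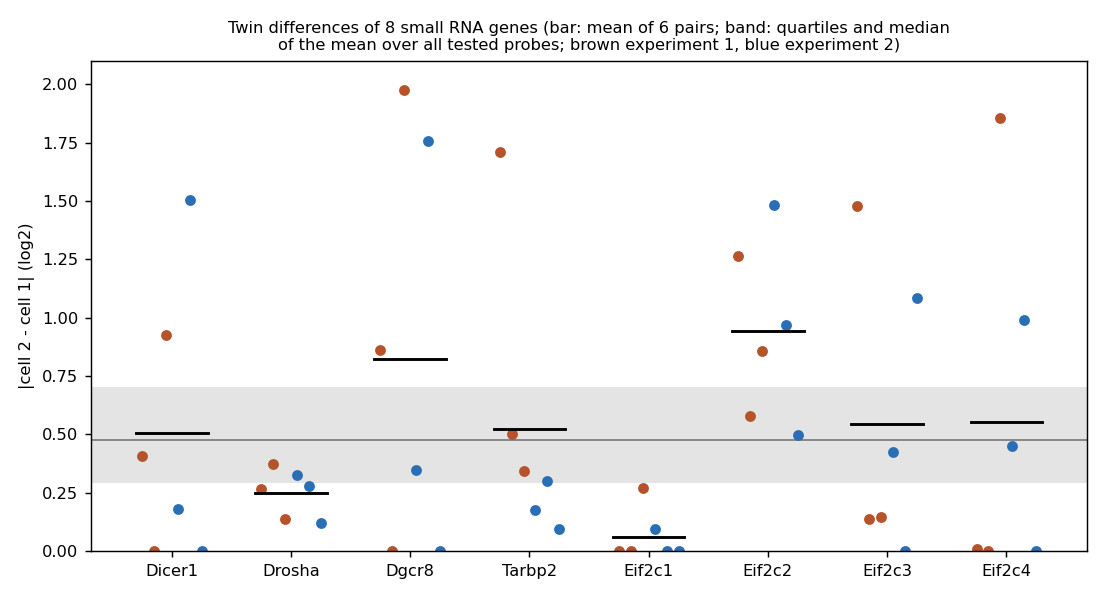
Absolute log2 difference between the cells of each embryo for the representative probe of each gene, with 1 point per pair (brown experiment 1, blue experiment 2) and a bar at the mean of 6 pairs. The grey band spans the quartiles, 0.29 to 0.70, and the line the median, 0.48, of the same mean over all tested probes. Drosha lies under the band and Eif2c2 above it.

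Whether cell 2 differed from cell 1 in a shared direction was tested with the embryo as a block. None of the 7 genes passed (0 of 7, limma, adjusted over 16712 probes), nor did any probe of the array (0%, although 737 had an unadjusted p under 0.05). Eif2c2 was higher in cell 2 in 4 of 6 embryos, with a mean difference of 0.03 and a 95% confidence interval from -0.94 to 0.99. Drosha was also higher in 4 of 6, with a mean difference of 0.11 (95% interval -0.19 to 0.41). For this probe, A_51_P127186, that bounds a shared change to under 1.33-fold in either direction. Its other tested probes had wider 95% intervals, -0.77 to 1.47 for A_52_P578347 and -0.36 to 0.56 for A_51_P311227. Dgcr8 had the widest mean difference, 0.71 (95% interval -0.16 to 1.58, higher in cell 2 in 3 embryos and at the floor in both cells in 2). The adjusted p of the 7 genes ran from 0.675 to 0.996.

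The third comparison is between the experiments, with the embryo as a random block. None of the 7 genes passed the test (0 of 7, limma, adjusted p 0.508 to 0.976), where 8.12% of all tested probes passed. The mean log2 difference, experiment 2 minus experiment 1, was -0.32 for Drosha (95% confidence interval -0.85 to 0.20), 0.28 for Tarbp2 (-0.46 to 1.02) and 0.23 for Eif2c2 (-0.82 to 1.28). It was 0.58 for Dicer1 (-0.38 to 1.54), 0.56 for Dgcr8 (-0.96 to 2.09), 0.19 for Eif2c4 (-0.97 to 1.35) and 0.03 for Eif2c3 (-0.79 to 0.86). These intervals still allow changes of over 2-fold for 5 of the 7 genes, all but Drosha and Eif2c3. With normexp background correction the differences of Dicer1, Dgcr8, Eif2c3 and Eif2c4 took the opposite sign, and none passed. For Drosha the probes disagreed in sign, since A_52_P578347 gave 0.68 and A_51_P311227 gave 0.65, neither of which passed.

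The genes that work with these 8 did include some that differed between the experiments. Of 11 partners of nuclear processing, 10 were tested. Each gene of the lists was counted by its tested probe of highest mean signal. By this count 2 were higher and 1 lower in experiment 2, where 3.96% of all probes were higher and 4.16% lower. A probe of Hnrnpa1 that was not counted also passed, at 1.17 (limma adjusted p = 0.0288). Its counted probe gave -0.11, and its others gave 0.77 and 0.61 without passing. Dhx9, an RNA helicase found in complexes with the Microprocessor and Argonaute, averaged -2.21 ± 0.38 in experiment 1 and 0.00 ± 0.44 in experiment 2 (SD, n = 6 cells each). Its highest cell of experiment 1 read -1.75 and its lowest of experiment 2 -0.63, so the groups did not overlap, as for 7.67% of all tested probes. The fold was 4.65 (log2 difference 2.22, 95% interval 1.58 to 2.85, limma adjusted p = 0.00113).

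Ddx5, the p68 helicase that assists Drosha, was 1.61-fold higher in experiment 2 (1.20 ± 0.25 against 1.88 ± 0.17, adjusted p = 0.0351 in limma). Its cells did not overlap, as for 7.67% of all tested probes. Its second probe went the other way, by -0.88, without passing. Khsrp, which binds the loop of certain microRNA precursors and promotes their cutting, was lower in experiment 2 (0.03 ± 0.61 against -1.45 ± 0.39, adjusted p = 0.0274 in limma), or 2.78-fold. Its second probe gave 0.41 and did not pass, so the probes of both genes disagree. Ddx5 no longer passed without cell 2 of pair D, cell 1 of pair I or cell 2 of pair L of experiment 1, or without either cell of experiment 2 pair G (adjusted p 0.0590 to 0.0810). Khsrp no longer passed without cell 1 of experiment 1 pair L or either cell of experiment 2 pair G (0.0532 to 0.0922).

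Among 9 genes for export and loading, 8 were tested and 0 passed between experiments (4 at an unadjusted p under 0.05). Of all 16712 tested probes, 3207 had an unadjusted p under 0.05 in limma in this comparison. Among the list's counted probes, the smallest p belonged to Hsp90aa1, a chaperone that helps load Argonaute, at -0.60 (adjusted p = 0.0852 in limma). Ptges3, the p23 cochaperone of Hsp90aa1, came next at 0.65 (0.14), but another Ptges3 probe went the other way, at -0.56 (0.133). Xpo5, which carries microRNA hairpins out of the nucleus, averaged -3.26 ± 0.62 and -3.23 ± 0.78 (SD, n = 6 cells each). Of 25 silencing effectors, 19 were tested and 0 passed by the counted probe (4 unadjusted). They include the TNRC6 proteins, the CCR4-NOT deadenylase and the decapping complex. A second probe of the effector Limd1 did pass, at 1.43 (limma adjusted p = 0.0470), while its counted probe gave -0.77. Among counted probes, Lsm1, a decapping activator, came nearest with 0.85 (0.0793), then Ddx20, a helicase of the SMN complex, with 1.19 (0.0926). Of 10 genes for tailing and turnover of small RNAs, 7 were tested and 0 passed (0 unadjusted), with Eri1 at -0.57 and Pnpt1 at 0.23 nearest.

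The piRNA pathway, a germline system whose PIWI proteins are relatives of the Argonautes, was read as a neighbour of the 8 genes, with 12 of 16 genes tested. Between experiments 2 were higher and 1 lower in experiment 2, where 3.96% of all probes were higher and 4.16% lower. Ddx4, the germline helicase known as Vasa, averaged -3.50 ± 0.63 in experiment 1 and -0.21 ± 0.58 in experiment 2 (SD, n = 6 cells each) (log2 difference 3.28, limma adjusted p = 0.000416). Its probe was well above background on 5 of the 6 arrays of experiment 1, where cells at the floor limit that difference, and with each array's own lower limit Ddx4 was at least 13.4-fold higher in experiment 2. Its highest cell of experiment 1 was at -2.42 and its lowest of experiment 2 at -0.71. Tdrkh, a Tudor protein that binds PIWI proteins, was also higher (log2 difference 2.21, adjusted p = 0.0156 in limma), at least 4.87-fold with each array's own lower limit, although cell 1 of experiment 2 pair G, at -3.13, lay under the highest cell of experiment 1, at -3.02. It no longer passed without cell 1 of experiment 1 pair L (adjusted p = 0.0654), with a floor for each array (0.0687) or with normexp, where its difference was 1.00 (0.282). Ddx4 no longer passed with the 75th percentile over all probes (0.0827). Piwil1, the PIWI protein MIWI, was lower in experiment 2 (-2.13 ± 0.62 against -3.81 ± 0.34), with a log2 difference of -1.68 (adjusted p = 0.0132 in limma). Its cells did not overlap, as for 7.67% of all tested probes, and 2 of the 6 cells of experiment 2 stood at the floor. Its call was lost with a lower common floor (adjusted p = 0.0627), a floor for each array (0.0957), the 75th percentile over all probes (0.240), the deposited table (0.0858) and normexp (0.0864).

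**Figure D5:**
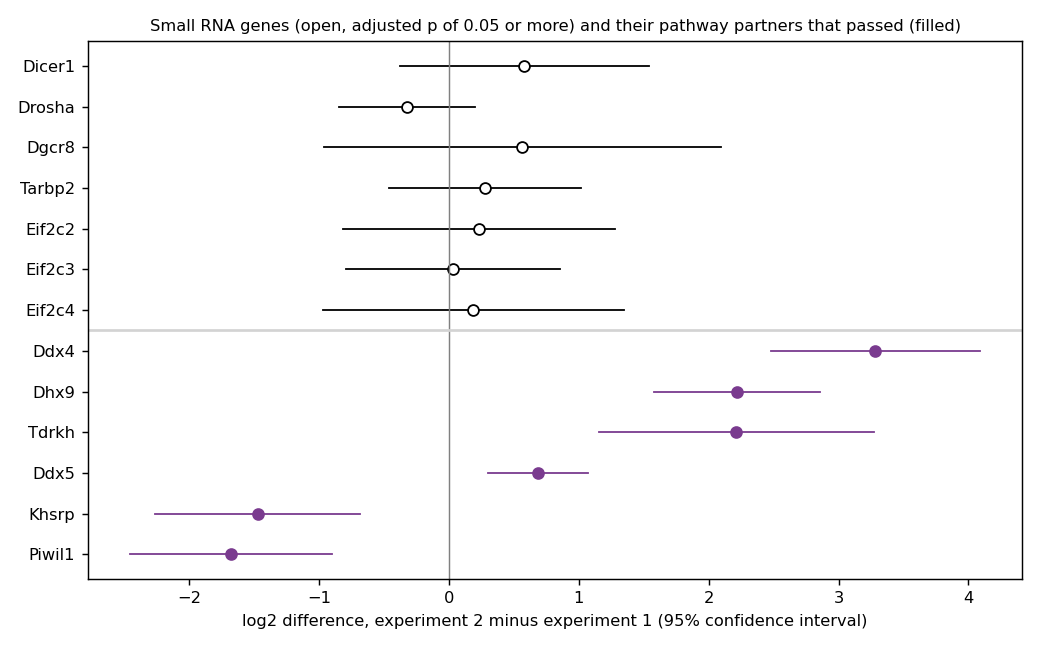
Log2 difference, experiment 2 minus experiment 1, with its 95% confidence interval from limma, for the 7 tested genes (open points) and for the 6 pathway partners that passed (filled points). The intervals of all 7 genes span 0, while Ddx4, Dhx9, Tdrkh and Ddx5 lie to the right of it and Khsrp and Piwil1 to the left.

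Marker lists moved with experiment as well. Of 7 markers of genome activation, 3 were higher in experiment 2, where 3.96% of all probes were higher. The 3 were Tcstv1 (2.11), Tcstv3 (1.45) and Tdpoz1 (1.86, log2 differences). Hspa1a (1.79), Eif1a (0.71), Usp17la (0.11) and Zscan4c (-0.78) did not pass. Other probes of Tcstv1 (1.115) and Tcstv3 (1.11) passed, while others of Tcstv1 (0.63) and Tdpoz1 (0.36) did not. The genome activation list summed to 5.54 to 9.13 units of the array's 75th percentile in the cells of experiment 1. In experiment 2 it summed to 10.8 to 19.6, without overlap. Of 11 tested oocyte markers, 1 passed, Ybx2, lower in experiment 2 by 2.13 on the log2 scale, and the list summed to 67.5 to 106 and 58.9 to 87.9. Oviduct epithelium markers summed to 8.61 to 65.4 units in the cells of experiment 1 and to 0.0871 to 1.61 in experiment 2. By gene, 5 of 9 tested were lower in experiment 2. The oviduct markers Epcam (0.62), Pax8 (0.54), Foxj1 (-0.21) and Muc16 (-1.34) did not pass, and the signs differed among them. Stroma and muscle markers summed to 11.3 to 69.8 against 0 to 0.635, with 8 of 8 tested genes lower, and macrophage markers to 5.55 to 256 against 0.0979 to 0.654, with 2 of 4 lower. Of all probes, 4.16% were lower. The macrophage calls were Lyz2, which reached 7.77 in log2 signal, and Apoe, while Cd68 (-0.37) and Tyrobp (-1.20) did not pass. Other probes of Krt7 (0.46), Col1a1 (0.47), Acta2 (0.26) and Lyz2 (0.01) showed no fall, and another of Krt8 gave -3.09 without passing. The macrophage marker Ptprc was above background on no array of experiment 1. Cumulus and granulosa markers ran from 0 to 4 detected genes of 12 in experiment 1 and from 2 to 10 in experiment 2, and 0 of 4 tested genes passed. Their part in the differences of Dhx9, Ddx5, Khsrp, Ddx4, Tdrkh and Piwil1 was not tested.

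Between embryos, 1 of the 56 tested pathway genes passed, where 1.41% of all tested probes passed. The gene was Pld6, a nuclease of piRNA formation, with an adjusted p of 0.0453 in limma. It averaged -2.83 in pair D of experiment 1 and -3.01 in pair D of experiment 2, and lay between the floor and -3.99 in the means of the other 4 embryos. Each pair D was alone on its slide. Its call was lost without any of 7 cells, namely both cells of experiment 1 pairs D and I, cell 1 of experiment 2 pair D and both cells of experiment 2 pair H (adjusted p 0.0513 to 0.130). The Pld6 call was also lost in limma with a lower common floor (adjusted p = 0.117), quantile normalization (0.0749), the 75th percentile over all probes (0.250) and the deposited table (0.103). It held with a floor for each array (0.0299) and normexp (0.0101), where 26.1% and 40% of all probes passed. The nearest genes of the other lists were Hnrnpa1 and Ncbp1 in nuclear processing (adjusted p 0.0810 and 0.164), Snd1 and Tsn in loading (0.0849 and 0.208), and Cnot7 and Ddx20 among effectors (0.105 and 0.196). In tailing they were Papd4, the poly(A) polymerase GLD2, and Lin28b, which blocks let-7 processing (0.0648 and 0.0889).

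For cell number, 0 of 56 pathway genes passed in limma, and 4 had an unadjusted p under 0.05, as did 737 of all 16712 tested probes. The 4 genes were Eri1, Dcp2 (0.43, higher in cell 2 in 5 of 6), Pan2 (0.96, 5 of 6) and Xpo5 (0.59, 4 of 6). Eri1 was lower in cell 2 by 0.64 on average and higher there in 0 of 6 embryos, some of which had both cells at the floor. It was detected on 4 arrays of each experiment and reached no more than -3.84 in experiment 2. The adjusted p of all 4 genes in limma was 0.675.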

How the data were processed

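Per the file headers, the authors read the arrays with Agilent Feature Extraction 9.1.3.1, and its intensity values are used here; the labels describe 2 rounds of amplification. The deposited value table, also intensity, is the processed signal divided by 1 constant per array and served as an alternative. Outlier spots were left out, spots of a probe averaged, and signals of the channel holding the RNA scaled to the 75th percentile, raised to the common floor and put on a log2 scale. The 16712 probes called well above background on 6 or more arrays entered limma 3.58.1 (R 4.3.3). Embryos were compared by a moderated F test, cell numbers with embryo as a fixed term, and experiments with embryo as a random one. P-values were Benjamini-Hochberg adjusted over all of them, with a threshold of 0.05. Cells of an embryo are biological replicates of that embryo only. The gene's probe with the highest mean among those tested represented it; pathway genes were named if they passed, up to 10 a list, and otherwise up to 2 by smallest p. Accessions were matched to RefSeq names of assembly GRCm38.p6. The members and lists were chosen with earlier results of these data known. The number of arrays limits the precision, and 9 of 12 arrays had under 50% of spots above background. Python with pandas, numpy, scipy and matplotlib made tables and figures. Alternatives covered background, scaling, floors, filters, each cell left out, blocks and probe averaging.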

Additional observations from a re-analysis of the deposited data

Results flagged for a closer look

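In 3 of 16 groups of 6 cells (each of the 8 genes in each experiment), a single cell stood far from the others. Chance sets about 1 in 20 groups of freely varying values apart, a rate that does not apply to groups in which several cells are set to the floor. They were Eif2c3 in experiment 1 pair D cell 1, at -2.65 with the other 5 cells at or just above the floor, Eif2c4 in experiment 1 pair L cell 2, at -2.15, and Eif2c1 in the same cell, at -3.85 with the other 5 at the floor. The array of experiment 1 pair D cell 1 had the smallest share of spots well above background (22.1%), and its own lower limit set the common floor. In the Cy3 channel of experiment 1, which the comparisons do not use, 1 member probe, of Eif2c1, was well above background on 1 array.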

How the results depend on the processing

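No member gene passed in the cell number or experiment comparison under any of the 25 and 24 alternatives run for them. Between embryos 0 of 7 passed in the main analysis, 2 of 7 with a floor per array (26.1% of all probes), 3 of 7 with normexp (40%), 2 of 8 with probes detected on at least 3 arrays and 2 of 8 with no filter (14.1% each), and 0 to 1 with a cell left out. In the wider filters the calls were Drosha and Eif2c1. The median over the 7 genes of the mean absolute twin difference was 0.54, and it was 1.03 with the lower common floor, 1.03 with a floor per array, 1.00 with the deposited table, and 0.52 to 0.63 with a cell left out. Differences between experiments that changed sign, none of them called, were those of Eif2c4 with the lower common floor (-0.43), a floor per array (-0.43), quantile normalization (-0.10), the 75th percentile over all probes (-0.20), the deposited table (-0.24), normexp (-0.90) and a cell left out (-0.019 to 0.48). Eif2c3 changed with quantile normalization (-0.012), normexp (-0.72), slide as a random block (-0.0064) and a cell left out (-0.13 to 0.27). With normexp Dicer1 was at -0.56 and Dgcr8 at -0.53, and with the mean of all its probes Drosha was at 0.33. Ddx5, a called partner, was at -0.10 with the mean of its probes (range otherwise 0.61 to 0.88). Of the called partners, Ddx5 lost its call in 13 and Khsrp in 11 of 24 alternatives, Piwil1 in 5 of 24, Tdrkh in 3 of 23, Ddx4 in 1 of 23 and Dhx9 in 1 of 24. Pld6 lost its call between embryos in 15 of 25. The number of pathway genes called ran from 0 to 11 between embryos (main 1) and from 1 to 9 between experiments (main 6). Over all probes the median difference between experiments was 0.19, 0.00 with the 75th percentile over all probes, 0.01 with quantile normalization and -0.11 with a floor per array, and the share of calls higher in experiment 2 was 48.8%, 12.8%, 54.9% and 25.7%. The differences between cell 2 and cell 1 over all tested probes were compared between embryos. Their correlations ran from -0.08 to 0.26 over 15 pairs of embryos, with a median of -0.007 and 3 of them over 0.1. With cell number as a replicate block, the adjusted p of Drosha between embryos was 0.113, 0 probes of the array passed between embryos (5414 unadjusted) in place of 235, and 0 of 7 member genes passed in either comparison. Dim signals limit Dicer1, Dgcr8, Eif2c1, Eif2c3 and Eif2c4, whose values at the floor are bounds only.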
